A study of Mus musculus with 12 samples.

Results

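The Zscan4 genes are a cluster of near-identical copies on mouse chromosome 7 that encode zinc finger proteins with a SCAN domain. The members described here are the 6 genes named Zscan4a, Zscan4b, Zscan4c, Zscan4d, Zscan4e and Zscan4f in the files, chosen by symbol out of 23354 gene symbols, and their FPKM sum is called the family sum. All 6 passed the filter for testing, which asked for at least 1 FPKM in at least 2 of the 12 libraries and left 13109 genes. Zscan4b passed it through 1 H3.1K36M library and 1 H3.1WT library.

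In mice, Zscan4 genes are transcribed in the 2-cell embryo when the zygotic genome is switched on. In cultured embryonic stem cells they are known for transient bursts in a small share of the cells, in a state that resembles the 2-cell embryo, and for a part in telomere lengthening and genome stability. The transcription factor Dux is known to switch on this 2-cell program, and several chromatin silencing complexes are known to restrain it. Zscan4c has been described as the main copy in embryonic stem cells and Zscan4d as the main copy in the embryo.

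The libraries came from J1 mouse embryonic stem cells carried as stable lines on an inactivated fibroblast feeder layer, in serum with leukemia inhibitory factor. In the overexpression arm, lines carried H3.1K36M or H3.1K9M, histone H3.1 with methionine in place of a lysine that is normally methylated, and the controls carried wild-type H3.1 (H3.1WT). In the knockdown arm, lines carried short hairpins named for Suv39h1 (shSuv39h1) or Suv39h2 (shSuv39h2), the enzymes that trimethylate histone H3 lysine 9, and the controls carried a hairpin labelled shNC. All 6 groups had 2 libraries of mRNA. Nothing in the labels tells if a group's 2 libraries came from different cultures or clones, so p-values measure the spread between libraries, which may be technical. In bulk RNA, fewer Zscan4-positive cells and less Zscan4 RNA per cell cannot be told apart.

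Between 12126 and 12518 genes reached 1 FPKM in each library. No read totals came with the values, but low FPKM values fell on steps that put 1 FPKM of a 2 kb transcript at about 41.4 to 54.8 fragments, with 65.9% to 73.5% of the low values within 0.05 of a whole fragment where evenly spread values would give 10%. The embryonic stem cell markers were present in every library, with a mean log2(FPKM + 1) of 7.12 to 7.75 over 10 genes. Fibroblast feeder markers were present too, with a mean of 3.57 to 5.11 over 14 genes, and Lum was listed at 0 in 1 library. Suv39h2, tested as a check of the hairpin, fell to 1.61 and 1.76 FPKM in shSuv39h2 libraries, against 4.80 and 4.78 FPKM in shNC libraries (limma log2 fold change -1.11 ± 0.09 SE, adjusted p = 0.000304). Suv39h1 stood at 4.91 and 5.10 FPKM in shSuv39h1 libraries, against 8.58 and 7.52 FPKM in shNC libraries, a difference of -0.59 ± 0.10 (log2 ± SE) that missed the threshold (limma adjusted p = 0.0877).

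The cluster spans 608 kb at chr7:10794242-11402318 of GRCm38, the build also called mm10, with 2 copies on the plus strand and 4 on the minus strand. Each copy has 4 exons over 4305 to 4816 bases. The annotations give the copies unequal standing. Zscan4c, Zscan4d and Zscan4f have open reading frames of 506 codons and Zscan4b one of 505 codons. Zscan4e has a frame of 505 codons in GENCODE and is a pseudogene in RefSeq, and Zscan4a is a pseudogene in both. GENCODE lists 3 further copies in the family, not analysed here.

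The promoters of 4 of the 6 copies are in the RefSeq table for GRCm38.p6 and share an alignable block of 216 bases within the 250 bases before the annotated starts. They are shown because the copies moved together in the comparisons given after them. Capitals mark the 12 positions at which the 4 copies are not all the same. The block lies at chr7:10905051-10905266 on the minus strand for Zscan4b, chr7:11005506-11005721 on the plus strand for Zscan4c, chr7:11166183-11166398 on the minus strand for Zscan4d and chr7:11397699-11397914 on the plus strand for Zscan4f.
Zscan4b: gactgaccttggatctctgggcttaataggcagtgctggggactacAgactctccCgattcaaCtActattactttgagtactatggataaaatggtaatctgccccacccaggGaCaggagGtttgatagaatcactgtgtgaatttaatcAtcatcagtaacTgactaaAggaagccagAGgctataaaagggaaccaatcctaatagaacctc
Zscan4c: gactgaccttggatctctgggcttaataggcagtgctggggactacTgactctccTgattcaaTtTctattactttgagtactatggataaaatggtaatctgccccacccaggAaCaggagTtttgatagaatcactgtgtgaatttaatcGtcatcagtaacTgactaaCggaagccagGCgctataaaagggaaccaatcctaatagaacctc
Zscan4d: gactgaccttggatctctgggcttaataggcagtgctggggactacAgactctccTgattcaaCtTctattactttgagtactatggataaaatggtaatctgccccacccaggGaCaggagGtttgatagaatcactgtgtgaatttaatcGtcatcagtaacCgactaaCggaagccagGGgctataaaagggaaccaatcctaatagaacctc
Zscan4f: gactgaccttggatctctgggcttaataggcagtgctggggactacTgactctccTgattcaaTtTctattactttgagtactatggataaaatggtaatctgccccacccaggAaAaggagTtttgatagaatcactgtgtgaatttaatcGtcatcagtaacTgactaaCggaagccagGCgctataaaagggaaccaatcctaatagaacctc

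The blocks of Zscan4c and Zscan4f differed at 1 position of 216, and those of Zscan4b and Zscan4f at 11, the most of any pair (identities of 94.9% to 99.5%). The letters TATAAA, searched on both strands of the 300 bases around each start, were in 4 of 4 Zscan4 promoters and in 13.6% of the 32851 mouse promoters in the table. In the Zscan4 promoters they lie near the 3′ end of the block, beginning 31 bases before the annotated start of Zscan4b and Zscan4f, 54 before that of Zscan4c and 65 before that of Zscan4d. The letters TGATTNAAT, the longer part of the known Dux motif and a length chosen after the sequences were seen, were in 3 of 4 Zscan4 promoter windows and in 0.718% of all promoters, on either strand. The full Dux motif, of which the shorter form is a part, was in 0 of 4 and in 0.0335% of all promoters. In Zscan4c and Zscan4f the shorter form spans 2 of the variable positions, and in Zscan4b it lies on the opposite strand at another place in the block. The windows of 300 bases held 1 CG dinucleotide in Zscan4b, 4 in Zscan4c, 3 in Zscan4d and 3 in Zscan4f, against a median of 7 over all promoters.

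The transcripts were as alike as the promoters, which bears on how far each copy can be read alone. Aligned transcripts were identical at 96.6% to 99.7% of bases, with 5 differing bases between Zscan4b and Zscan4e and 9 between Zscan4c and Zscan4f. Of all windows of 100 bases, 70.4% of those in Zscan4d and 60.9% of those in Zscan4a occurred in no other copy. The share was 27.2% for Zscan4c, 21.3% for Zscan4b, 15.9% for Zscan4e and 10.5% for Zscan4f. No source used here tells how reads that match several copies were shared out. The split between Zscan4c and Zscan4f and between Zscan4b and Zscan4e is therefore uncertain, while the family sum is less affected. Of the Zscan4f windows 75.0% occurred in another member, and those neither unique nor in a member were shared only with the further copies. Those copies have no values here, and whether their reads were counted in Zscan4f and the family sum is not known. Outside the annotated family, 2 genes held a window of 50 bases in common with a member, and neither was analysed here.

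**Figure D1:**
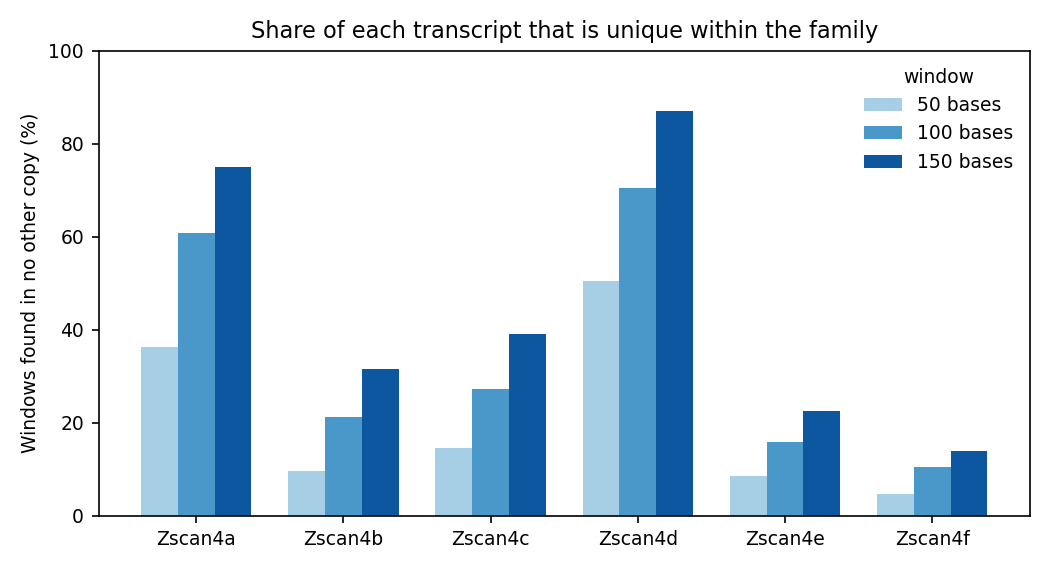
Share of windows in each Zscan4 transcript that occur in no other copy (percent, y axis), for windows of 50, 100 and 150 bases (bars). Zscan4d and Zscan4a have the largest unique shares, 70.4% and 60.9% at 100 bases, and Zscan4f the smallest, 10.5%.

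Within every library the copies kept nearly the same order of FPKM, a unit that corrects for transcript length. Zscan4f was at rank 1 in 12 of 12 libraries and made up 31.2% to 40.3% of the family sum. Zscan4e was at rank 5 and Zscan4b at rank 6 in 12 of 12. Zscan4c, Zscan4d and Zscan4a took the ranks between. Across the 12 libraries the log2(FPKM + 1) of every 2 members were correlated (15 pairs, Pearson r of 0.883 to 0.980), a description of points that share libraries and reads.

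The family sum was highest in H3.1K36M and lowest in shSuv39h2. It was 46.4 and 48.7 FPKM in H3.1K36M libraries, 10.8 and 8.11 FPKM in H3.1K9M libraries and 28.9 and 26.5 FPKM in H3.1WT libraries. In the knockdown arm it was 16.8 and 13.9 FPKM in shSuv39h1 libraries, 2.38 and 2.98 FPKM in shSuv39h2 libraries and 20.5 and 31.4 FPKM in shNC libraries. Within each arm no group's libraries overlapped those of another group, and the order was H3.1K36M, H3.1WT, H3.1K9M in the overexpression arm and shNC, shSuv39h1, shSuv39h2 in the knockdown arm. The control groups of the arms overlapped, with H3.1WT libraries inside the range of the shNC libraries. The arms may have been scaled separately, so no test was made across them. The sum was given no test, since the members were proposed with results of these data known.

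**Figure D2:**
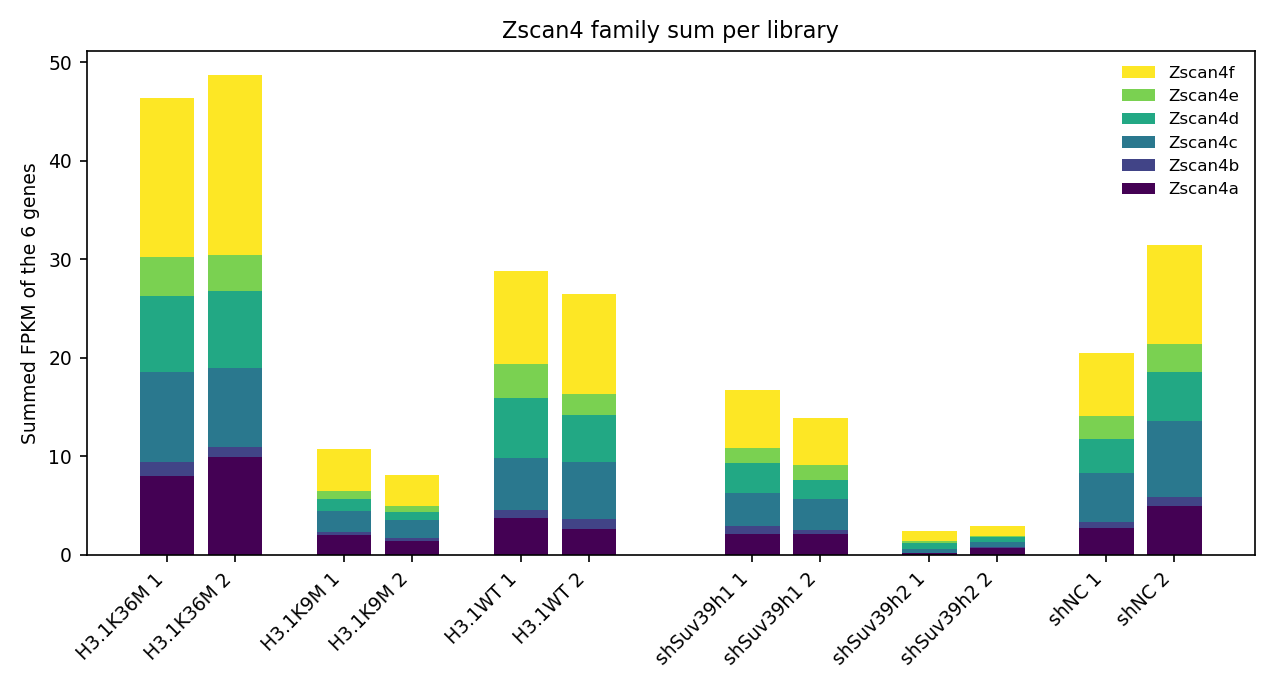
Summed FPKM of the 6 Zscan4 genes (y axis) in each of the 12 libraries (bars), with the contribution of each copy in colour. The H3.1K36M bars reach 46.4 and 48.7 FPKM and the shSuv39h2 bars 2.38 and 2.98 FPKM, and Zscan4f is the largest segment in every bar.

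With the shSuv39h2 hairpin, all 6 Zscan4 genes fell. The family sum averaged 2.68 ± 0.420 FPKM in shSuv39h2 libraries and 26.0 ± 7.69 FPKM in shNC libraries (SD, n = 2 each), so that 10.3% of the shNC level was left. Among all tested genes 10.0% passed the threshold in this comparison, with 4.69% lower, and 50.8% had groups that did not overlap. Of the Zscan4 genes, 6 of 6 passed and 6 of 6 did not overlap. Their median log2 fold change was -1.74, against 0.04 over all tested genes.

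Zscan4c, a copy with a full reading frame, was at 0.415 and 0.552 FPKM in shSuv39h2 libraries, against 4.96 and 7.69 FPKM in shNC libraries. Zscan4f, its nearest relative, was at 0.946 and 1.05 FPKM in shSuv39h2 libraries, against 6.42 and 10.0 FPKM in shNC libraries. Zscan4d, the copy best told apart by its sequence, was at 0.581 and 0.451 FPKM in shSuv39h2 libraries, against 3.40 and 5.06 FPKM in shNC libraries. In each of these the shSuv39h2 libraries lay far below both controls, and the shNC libraries differed more between themselves than the shSuv39h2 libraries did. The fitted log2 fold changes (± SE) were -2.28 ± 0.16 for Zscan4c, -2.18 ± 0.19 for Zscan4f and -1.77 ± 0.20 for Zscan4d, with limma adjusted p of 0.000161, 0.000340 and 0.00131.

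Zscan4e was at 0.209 and 0.131 FPKM in shSuv39h2 libraries, against 2.38 and 2.79 FPKM in shNC libraries, and fell by 1.62 on the log2 scale (SE 0.15, limma adjusted p = 0.000516). The pseudogene Zscan4a was at 0.210 and 0.704 FPKM in shSuv39h2 libraries, against 2.69 and 4.98 FPKM in shNC libraries, and fell by 1.71 (SE 0.25, limma adjusted p = 0.00369). Zscan4b was at 0.0231 and 0.0866 FPKM in shSuv39h2 libraries, against 0.689 and 0.897 FPKM in shNC libraries, with a fitted change of -0.76 (SE 0.15, limma adjusted p = 0.0129). The log2 changes are of FPKM + 1 and understate the change of copies this low. In shSuv39h2 libraries the Zscan4b values stand for about 1 and 4 fragments, so its level there is set by counting error, while the whole family rested on about 122 and 164.7 fragments, against 878.5 and 1757.4 in shNC libraries. Feeder markers summed to 897 and 701 FPKM in shSuv39h2 libraries and 632 and 841 FPKM in shNC libraries. Of 13 tested 0 rose and 1 fell, where 4.69% of all tested genes fell. When the mean of the feeder markers was added as a covariate, 6 Zscan4 genes passed. Of 10 embryonic stem cell markers 3 rose with shSuv39h2 and 0 fell, where 10.0% of all tested genes passed in either direction. They were Klf4, Pou5f1 and Utf1, with ratios of 1.45, 1.35 and 1.31 to shNC libraries (limma adjusted p of 0.00996, 0.0135 and 0.0179).

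**Figure D3:**
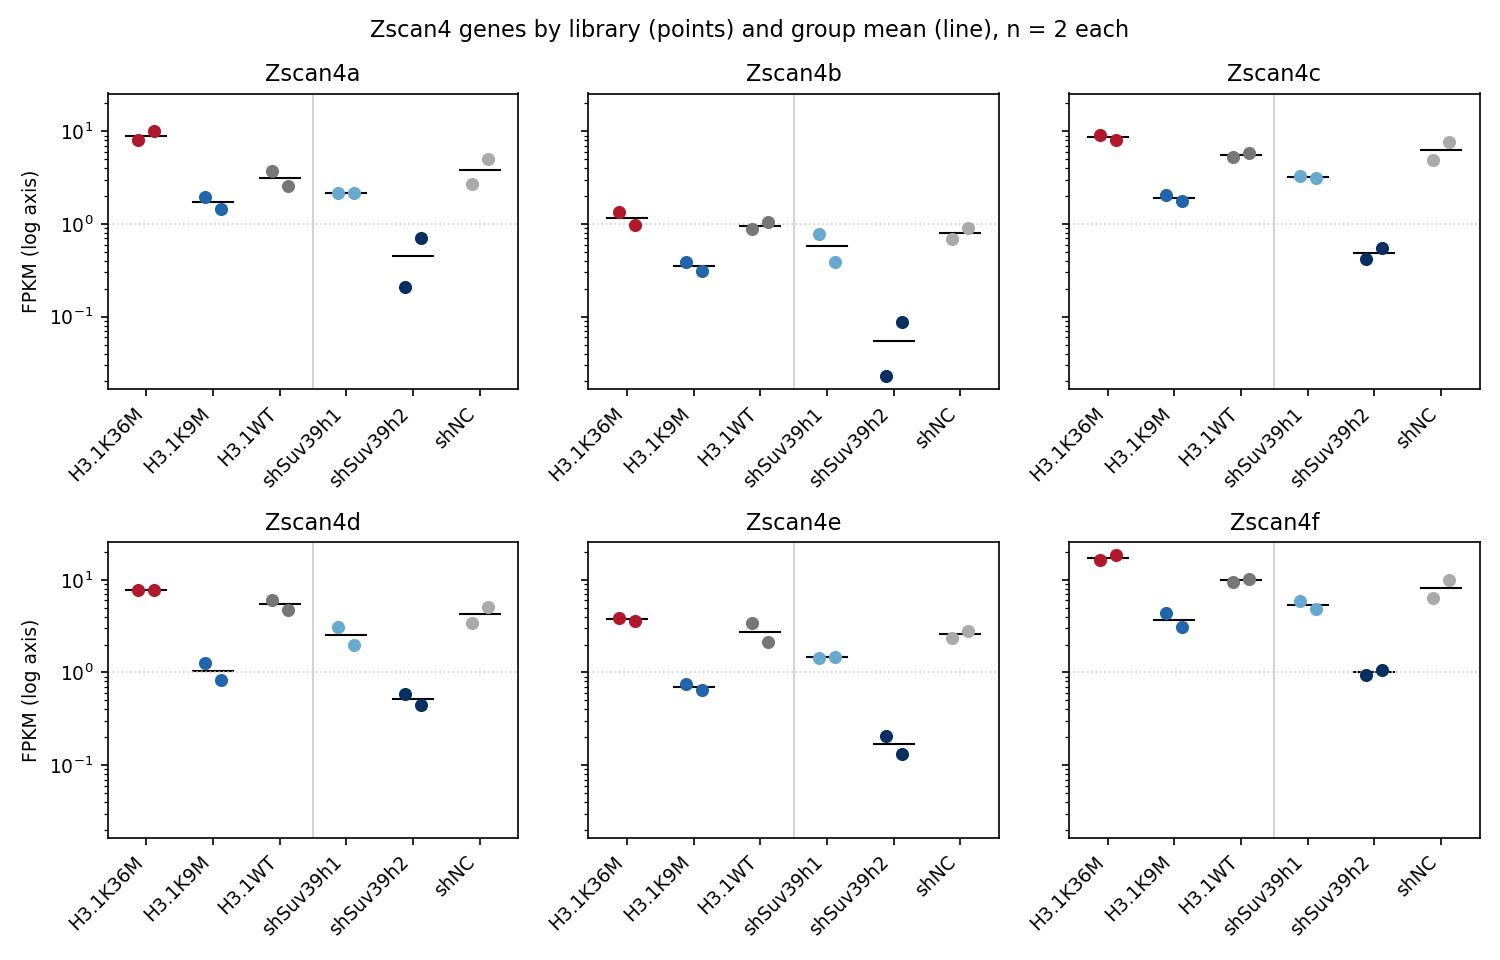
FPKM of each Zscan4 gene (log y axis) in the 6 groups (x axis), with a point per library and a line at the group mean, n = 2 each. In every panel the shSuv39h2 points are the lowest, and the dotted line marks 1 FPKM.

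With the shSuv39h1 hairpin the Zscan4 values were lower than in the controls, but none passed the threshold. The family sum averaged 15.4 ± 2.01 FPKM in shSuv39h1 libraries and 26.0 ± 7.69 FPKM in shNC libraries (SD, n = 2 each), or 59.1% of the shNC level. The ratio of a shSuv39h1 library to a shNC library ran from 0.444 to 0.817 over the 4 ways to pair them. By limma 0 of 6 Zscan4 genes passed, where 0.145% of all tested genes did, and 5 of 6 had an unadjusted p under 0.05, as did 1384 of the 13109 genes. The groups did not overlap in 5 of 6 members, against 39.4% of all tested genes.

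Zscan4c was at 3.30 and 3.11 FPKM in shSuv39h1 libraries, against 4.96 and 7.69 FPKM in shNC libraries (log2 fold change -0.77 ± 0.16 SE, limma adjusted p = 0.133, the lowest of the 6). Zscan4f was at 5.95 and 4.83 FPKM in shSuv39h1 libraries, against 6.42 and 10.0 FPKM in shNC libraries. Zscan4d was at 3.12 and 1.98 FPKM in shSuv39h1 libraries, against 3.40 and 5.06 FPKM in shNC libraries. For Zscan4f and Zscan4d the higher shSuv39h1 library came close to the lower shNC library.

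Zscan4e was at 1.44 and 1.49 FPKM in shSuv39h1 libraries, against 2.38 and 2.79 FPKM in shNC libraries. Zscan4a was at 2.17 and 2.14 FPKM in shSuv39h1 libraries, against 2.69 and 4.98 FPKM in shNC libraries. Zscan4b was at 0.780 and 0.389 FPKM in shSuv39h1 libraries, against 0.689 and 0.897 FPKM in shNC libraries, and was the member whose groups overlapped. The median log2 fold change of the 6 was -0.55, against 0.04 over all tested genes, with limma adjusted p of up to 0.723. Feeder markers summed to 669 and 449 FPKM in shSuv39h1 libraries and 632 and 841 FPKM in shNC libraries. Of the 13 tested, 0 passed the threshold, where 0.145% of all tested genes did. All 13 were lower in value, with a median log2 fold change of -0.47 against 0.04 over all tested genes. When the mean of the feeder markers was added as a covariate, 0 Zscan4 genes passed.

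Set against each other, the hairpins differed. They also lowered their targets unequally. Suv39h1 averaged 5.01 FPKM in shSuv39h1 libraries and 8.05 FPKM in shNC libraries, and Suv39h2 1.68 FPKM in shSuv39h2 libraries and 4.79 FPKM in shNC libraries. The strength of a hairpin and the gene it targets cannot be told apart here. The family sum was 5.73 times as high in shSuv39h1 libraries as in shSuv39h2 libraries, and 5 of 6 Zscan4 genes were higher in shSuv39h1, where 6.56% of all tested genes passed in either direction and 4.56% were higher. The members' groups did not overlap in 6 of 6, against 58.7% of all tested genes. The largest log2 difference was that of Zscan4f, 1.67 ± 0.19 (SE, limma adjusted p = 0.00264), followed by Zscan4c at 1.51 ± 0.16 (limma adjusted p = 0.00255). Zscan4b, at 0.58 ± 0.15, just missed (limma adjusted p = 0.0510). When any 1 of the 4 libraries was left out, 2 or 3 members still passed, with Zscan4c and Zscan4f among them each time.

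In H3.1K9M libraries the family sum averaged 9.46 ± 1.90 FPKM and in H3.1WT libraries 27.7 ± 1.66 FPKM (SD, n = 2 each), so that 34.2% of the H3.1WT level was left. Of the 6 Zscan4 genes, 4 fell, where 0.313% of all tested genes passed in this comparison and 0.290% fell, and 6 of 6 had groups that did not overlap, against 35.2% of all tested genes. The members' median log2 fold change was -1.14, against -0.01 over all tested genes. Of 10 embryonic stem cell markers 0 passed, with 8 lower and 2 higher in value and a median of -0.19. Nanog was at 123 ± 18.5 FPKM in H3.1K9M libraries and 192 ± 10.7 FPKM in H3.1WT libraries (SD, n = 2 each, limma adjusted p = 0.227). The part of these markers in the Zscan4 values was not tested.

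Zscan4d had the largest change. It was at 1.26 and 0.834 FPKM in H3.1K9M libraries, against 6.08 and 4.76 FPKM in H3.1WT libraries (log2 fold change -1.65 ± 0.20 SE, limma adjusted p = 0.0178). Its share of the family sum was 11.7% and 10.3% in H3.1K9M libraries and 21.1% and 17.9% in H3.1WT libraries. Zscan4c was at 2.08 and 1.77 FPKM in H3.1K9M libraries, against 5.27 and 5.78 FPKM in H3.1WT libraries (log2 fold change -1.16 ± 0.16 SE, limma adjusted p = 0.0227). The H3.1K9M libraries lay well under both controls for each of these copies. Zscan4f was at 4.35 and 3.11 FPKM in H3.1K9M libraries, against 9.52 and 10.2 FPKM in H3.1WT libraries (log2 fold change -1.21 ± 0.19 SE, limma adjusted p = 0.0333). Zscan4e was at 0.753 and 0.651 FPKM in H3.1K9M libraries, against 3.39 and 2.11 FPKM in H3.1WT libraries (log2 fold change -1.12 ± 0.15 SE, limma adjusted p = 0.0227).

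The other two members were lower in value without passing. Zscan4a was at 1.97 and 1.44 FPKM in H3.1K9M libraries, against 3.73 and 2.60 FPKM in H3.1WT libraries (limma adjusted p = 0.402). Zscan4b was at 0.386 and 0.313 FPKM in H3.1K9M libraries, against 0.875 and 1.05 FPKM in H3.1WT libraries (limma adjusted p = 0.246). The calls in this comparison rested on few libraries and were not kept in every fit that left out 1 library. Over the 14 alternatives run, the log2 fold change of Zscan4d ran from -2.28 to -1.50 and that of Zscan4c from -1.48 to -1.08. That of Zscan4e ran from -1.80 to -0.87 and that of Zscan4f from -1.53 to -1.02. With no filter, with array quality weights or with the libraries of this arm alone, 0 Zscan4 genes passed. Over all genes 12 passed with no filter and 1 with array quality weights, against 41 in the main fit. Feeder markers summed to 1620 and 896 FPKM in H3.1K9M libraries and 557 and 909 FPKM in H3.1WT libraries. Of the 13 tested, 0 passed the threshold, where 0.313% of all tested genes did. All 13 were higher in value, with a median log2 fold change of 0.75 against -0.01 over all tested genes. When the mean of the feeder markers was added as a covariate 3 Zscan4 genes passed, namely Zscan4c, Zscan4d and Zscan4f.

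In H3.1K36M libraries the family sum averaged 47.6 ± 1.67 FPKM and in H3.1WT libraries 27.7 ± 1.66 FPKM (SD, n = 2 each), a ratio of 1.72. Only Zscan4a rose past the threshold, so that 1 of 6 passed, where 4.84% of all tested genes did and 3.1% rose. The groups did not overlap in 5 of 6 members, against 65.9% of all tested genes, and 5 of 6 had an unadjusted p under 0.05, as did 2722 genes in all. The members' median log2 fold change was 0.51, against 0.03 over all tested genes.

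Zscan4a was at 8.04 and 9.95 FPKM in H3.1K36M libraries, against 3.73 and 2.60 FPKM in H3.1WT libraries (log2 fold change 1.27 ± 0.25 SE, limma adjusted p = 0.0202). Its share of the family sum was 17.3% and 20.4% in H3.1K36M libraries and 12.9% and 9.79% in H3.1WT libraries. Zscan4f was at 16.2 and 18.3 FPKM in H3.1K36M libraries, against 9.52 and 10.2 FPKM in H3.1WT libraries, a log2 difference of 0.75 ± 0.19 SE (limma adjusted p = 0.0575). Both H3.1K36M libraries lay above both controls for these copies. Zscan4c was at 9.15 and 8.04 FPKM in H3.1K36M libraries, against 5.27 and 5.78 FPKM in H3.1WT libraries (limma adjusted p = 0.0912). Zscan4d was at 7.78 and 7.83 FPKM in H3.1K36M libraries, against 6.08 and 4.76 FPKM in H3.1WT libraries (limma adjusted p = 0.224).

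Zscan4e was at 3.88 and 3.64 FPKM in H3.1K36M libraries, against 3.39 and 2.11 FPKM in H3.1WT libraries. Zscan4b was at 1.36 and 0.966 FPKM in H3.1K36M libraries, against 0.875 and 1.05 FPKM in H3.1WT libraries, and was the member whose groups overlapped. Feeder markers summed to 1176 and 1136 FPKM in H3.1K36M libraries and 557 and 909 FPKM in H3.1WT libraries. Of the 13 tested, 3 passed the threshold, all higher, where 3.1% of all tested genes rose. When the mean of the feeder markers was added as a covariate, 0 Zscan4 genes passed, with Zscan4a at 1.16 (limma adjusted p = 0.0967). When any 1 of the 4 libraries was left out, which leaves a group with 1 library, the log2 fold change of Zscan4a was between 1.07 and 1.47. With a pseudocount of 0.1 also 0 Zscan4 genes passed. With array quality weights 4 did, in a fit where 2983 of all tested genes passed, against 634 in the main fit. Of 10 embryonic stem cell markers 2 rose in the same comparison, where 3.1% of all tested genes did. Nanog was at 376 ± 3.39 FPKM in H3.1K36M libraries and 192 ± 10.7 FPKM in H3.1WT libraries (SD, n = 2 each, limma adjusted p = 0.0129). The other was Tfcp2l1 (limma adjusted p = 0.00534). The part of these markers in the Zscan4 values was not tested. Suv39h1, itself an H3 lysine 9 enzyme, was among the 4.84% of all tested genes that passed here. It fell to 6.92 and 7.58 FPKM in H3.1K36M libraries, against 10.3 and 12.2 FPKM in H3.1WT libraries (log2 fold change -0.57 ± 0.10 SE, limma adjusted p = 0.0163). A part of Suv39h1 in the Zscan4 values was not tested either.

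Between the mutant histones every copy differed. The family sum was 5.03 times as high in H3.1K36M libraries as in H3.1K9M libraries, and 6 of 6 Zscan4 genes were higher, where 8.24% of all tested genes passed in either direction and 5.57% were higher. The groups did not overlap in 6 of 6, against 52.0% of all tested genes. Zscan4d differed most, by 2.11 ± 0.20 on the log2 scale (SE, limma adjusted p = 0.000316), and Zscan4b least, by 0.67 ± 0.15 (limma adjusted p = 0.0247). Zscan4b had entered the test through libraries of H3.1K36M and H3.1WT, and without it, under a filter on the mean over all libraries, 5 members passed. Zscan4a differed by 1.89 ± 0.25 (limma adjusted p = 0.00185). Of the embryonic stem cell markers 5 of 10 were also higher in H3.1K36M, with Nanog 3.06 times as high, and their part in the Zscan4 difference was not tested. The comparisons within an arm share control or mutant libraries, so their values are given side by side and are not independent of each other.

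**Figure D4:**
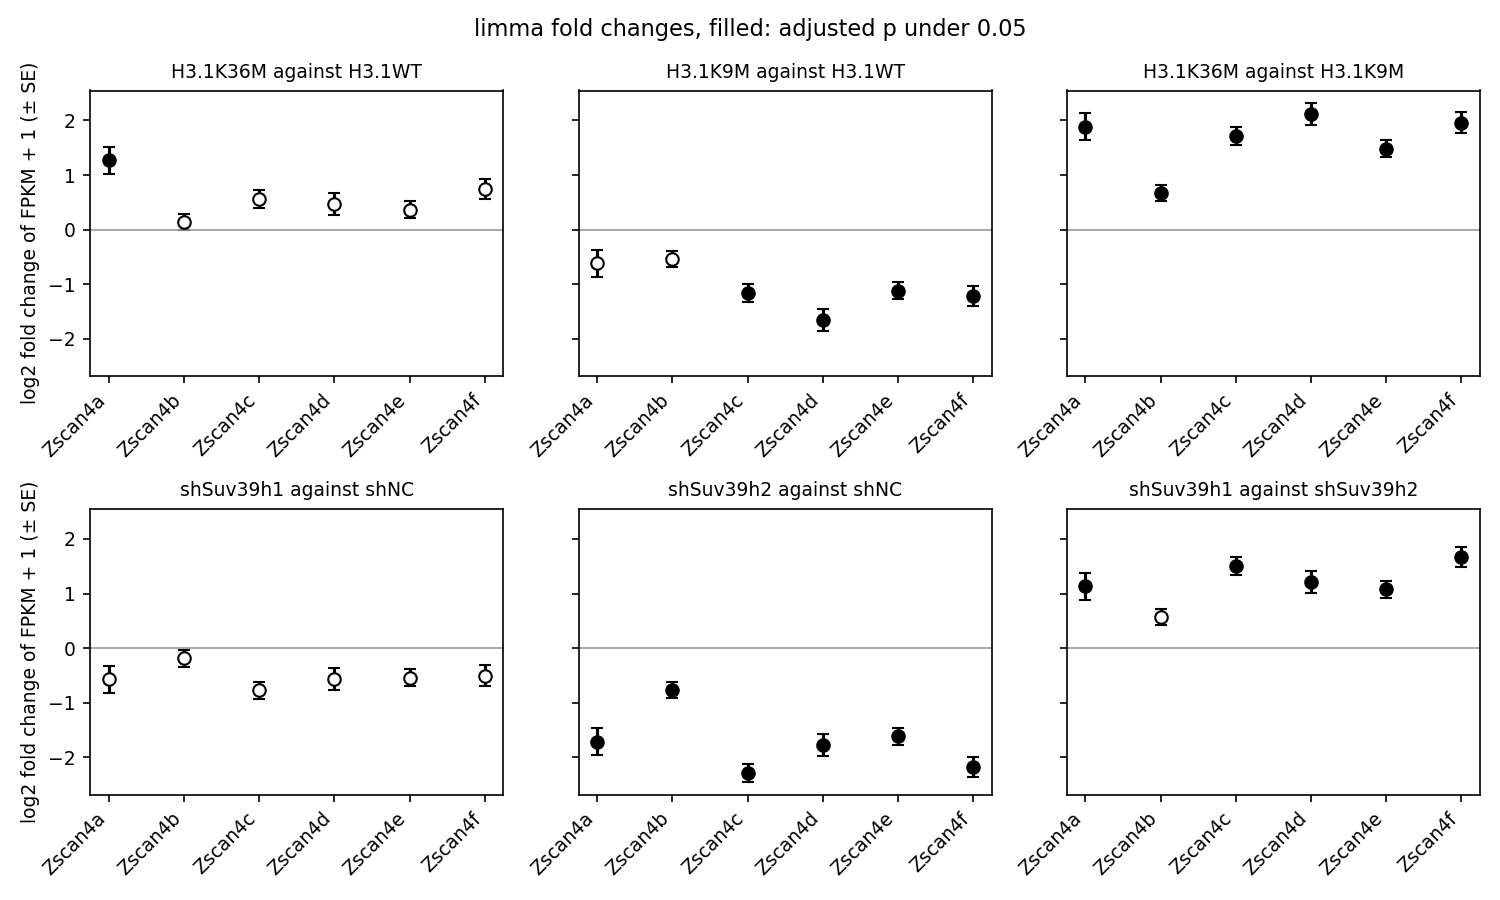
Log2 fold change of FPKM + 1 with its SE (y axis) for each Zscan4 gene (x axis) in the 6 comparisons, filled where the limma adjusted p was under 0.05. All 6 members are filled for shSuv39h2 against shNC and for H3.1K36M against H3.1K9M, and 0 for shSuv39h1 against shNC.

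Dux, the transcription factor upstream of Zscan4, stayed under 1 FPKM in all 12 libraries and was not tested. It was at 0.995 and 0.908 FPKM in H3.1K36M libraries, 0.271 and 0.160 FPKM in H3.1K9M libraries and 0.597 and 0.589 FPKM in H3.1WT libraries. It was at 0.365 and 0.265 FPKM in shSuv39h1 libraries, 0.216 and 0.148 FPKM in shSuv39h2 libraries and 0.658 and 0.601 FPKM in shNC libraries. The order of the groups within each arm was that of the Zscan4 family sum. Values this low rest on few fragments, so the order of shSuv39h1 and shSuv39h2 is uncertain. A part of Dux in the Zscan4 values was not tested.

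A list of 44 other genes of the 2-cell-like state, put together from general knowledge, had 41 in the files and 19 that were tested. With shSuv39h2, 16 of the 19 fell, where 4.69% of all tested genes did, and 0 rose, with a median log2 fold change of -1.10 against 0.04 over all tested genes. With H3.1K9M, 6 of the 19 fell, where 0.290% of all tested genes did, and 0 rose (median -0.80 against -0.01). Among these, AF067061, Gm8300, Gm2022, Gm5662 and Gm2016 missed the threshold with no filter, with array quality weights and in the arm-only fit. They also missed it with the replicate number as a block, straight or crossed. All of them passed with the feeder covariate, with quantile normalization and with median-of-ratios scaling. With H3.1K36M, 3 of the 19 rose, Gm20767, Tmem92 and AF067061, where 3.1% of all tested genes did, and 0 fell (median 0.55 against 0.03, with 16 values above 0 and 3 below). Feeder markers were higher in the same group. With the feeder covariate Tmem92 was at 0.92 (limma adjusted p = 0.142), against 1.27 without it, AF067061 at 0.37 (limma adjusted p = 0.304), against 0.68, and Gm20767 at 0.90 (limma adjusted p = 0.0437), against 1.27. Tmem92 and AF067061 also missed the threshold whenever any 1 library was left out, and Gm20767 missed it in 3 of 4 such fits. With shSuv39h1, 0 passed in either direction, where 0.145% of all tested genes did (median -0.33 against 0.04). For Gm20767 the values were 7.44 and 7.08 FPKM in H3.1K36M libraries, against 2.05 and 2.82 FPKM in H3.1WT libraries (log2 fold change 1.27, limma adjusted p = 0.00650). For Gm8300 they were 0.751 and 0.745 FPKM in shSuv39h2 libraries, against 5.79 and 7.41 FPKM in shNC libraries (log2 fold change -2.11, limma adjusted p = 0.000304).

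The 6 other genes most like the Zscan4 family sum over the 12 libraries, by Pearson r of log2(value + 1), were Gm5662 (r = 0.991), Gm8300 (r = 0.990), Gm2022 (r = 0.989), Slc4a5 (r = 0.989), A230046K03Rik (r = 0.979) and Gm2016 (r = 0.977). Of these, Gm5662, Gm8300, Gm2022 and Gm2016 are also on the list of 2-cell-like genes, while Slc4a5, a bicarbonate transporter, and A230046K03Rik are not. Since they were picked for following the family sum in these libraries, their levels are a description: mean Slc4a5 was highest in H3.1K36M at 8.22 FPKM and lowest in shSuv39h2 at 1.85 FPKM, and mean A230046K03Rik was highest in H3.1K36M at 25.7 FPKM and lowest in shSuv39h2 at 17.2 FPKM.

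Few of the genes known to act on Zscan4 or Dux passed the test. Of 5 tested activators, Tbx3, a transcription factor of the naive stem cell state, was the gene that passed against a control. It fell with H3.1K9M, where 0.290% of all tested genes did. Tbx3 was at 11.4 ± 2.49 FPKM in H3.1K9M libraries, against 23.5 ± 3.97 FPKM in H3.1WT libraries (SD, n = 2 each). The log2 fold change was -0.99 ± 0.15 SE (limma adjusted p = 0.0327). Its call was lost with no filter (limma adjusted p = 0.0684), with array quality weights (0.166) and in the arm-only fit (0.220). It was also lost with the feeder covariate (0.0734) and with the replicate number as a block, straight (0.0619) or crossed (0.0837). Without the first H3.1WT library the log2 fold change was -0.82, and without the second it was -1.16. Of 18 tested repressors, 2 rose and 0 fell with shSuv39h2, a share near the 10.0% of all tested genes that passed there, and 0 passed in the other comparisons with a control. The genes were Pcgf6, a subunit of a Polycomb complex, at 26.6 ± 1.57 FPKM in shSuv39h2 libraries and 17.4 ± 2.34 FPKM in shNC libraries (limma adjusted p = 0.0115), and Ehmt2, an H3 lysine 9 methyltransferase, at 70.6 ± 1.46 FPKM in shSuv39h2 libraries and 56.6 ± 5.01 FPKM in shNC libraries (limma adjusted p = 0.0381). Each missed the threshold in 3 of the 4 fits that left out a library.

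Of 23 tested telomere maintenance genes, 5 rose and 2 fell with shSuv39h2, 1 fell with H3.1K36M, and 0 passed with H3.1K9M or shSuv39h1. Over all tested genes 10.0% passed with shSuv39h2 and 4.84% with H3.1K36M, so the H3.1K36M count is at the background. Ten1 and Obfc1, subunits of the CST complex that binds telomere ends, went opposite ways with shSuv39h2. Ten1 fell to 7.29 ± 0.582 FPKM in shSuv39h2 libraries, against 12.7 ± 0.530 FPKM in shNC libraries (limma adjusted p = 0.00196). Obfc1 rose to 12.4 ± 0.498 FPKM in shSuv39h2 libraries, against 7.14 ± 0.958 FPKM in shNC libraries (limma adjusted p = 0.00313). Obfc1 was also the gene that fell with H3.1K36M, with a mean of 5.21 ± 0.255 FPKM in H3.1K36M libraries and 8.35 ± 0.342 FPKM in H3.1WT libraries (limma adjusted p = 0.0103, and 0.0664 to 0.133 when a library was left out). The 11 tested Zscan genes outside the cluster held 1 call against a control. This was Zscan5b, which rose to 3.40 ± 0.102 FPKM in H3.1K36M libraries, against 1.08 ± 0.00269 FPKM in H3.1WT libraries (log2 fold change 1.08, limma adjusted p = 0.0139). With the feeder covariate it was at 0.76 (limma adjusted p = 0.102), and it also missed the threshold when any 1 library was left out (0.0821 to 0.137).

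**Figure D5:**
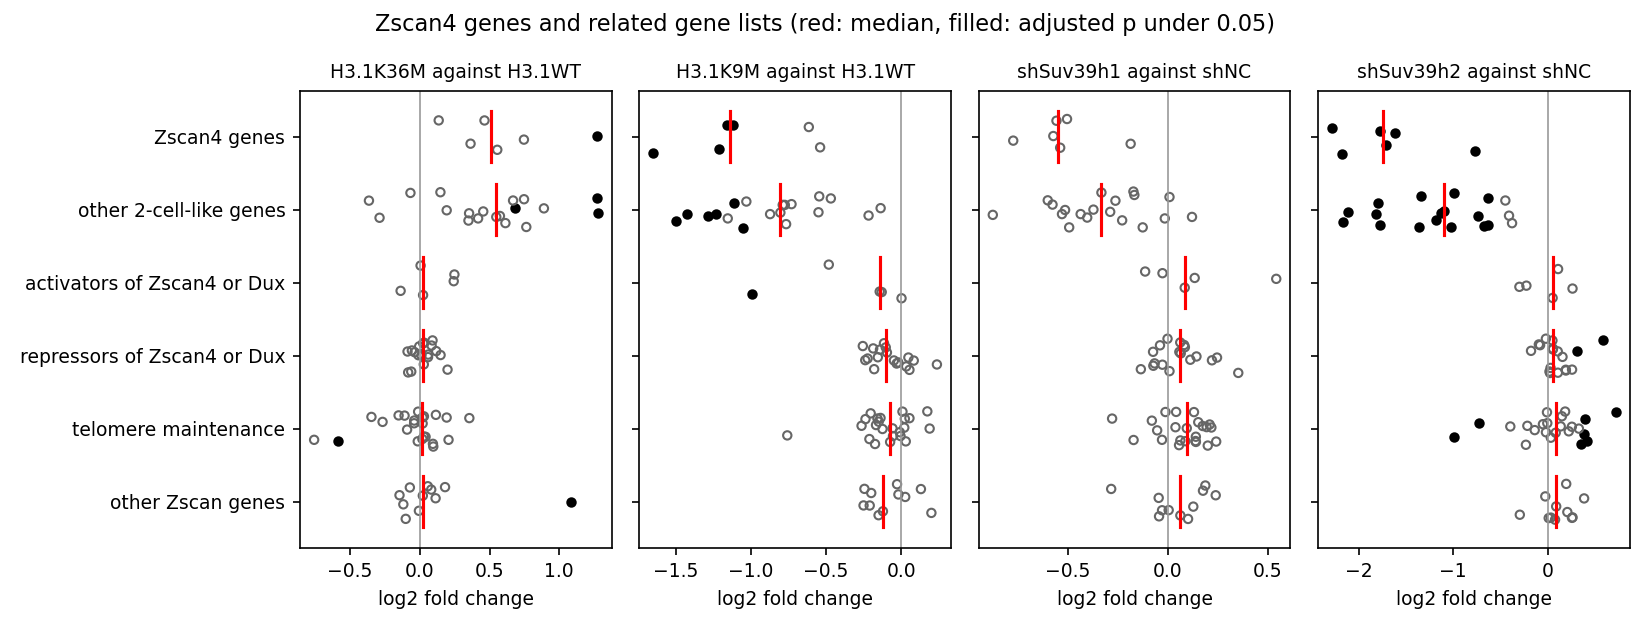
Log2 fold change of FPKM + 1 (x axis) of the Zscan4 genes and of 5 related gene lists (rows) in the 4 comparisons with a control, with a point per gene, filled where the limma adjusted p was under 0.05, and a red line at the median. The medians of the other 2-cell-like genes, 0.55, -0.80, -0.33 and -1.10 from left to right, lie on the same side of 0 as those of the Zscan4 genes, and the other 4 lists centre near 0.

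The genes around the cluster were nearly silent. Of 29 annotated neighbours within 1 Mb that are in the files, 28 were below the filter and 25 were listed at 0 in all 12 libraries. The neighbours included 19 vomeronasal receptor genes of the Vmn1r family, and the highest value among those below the filter was 0.0939 FPKM, for Vmn1r84. The exception was Zik1, a zinc finger gene, which was tested and did not pass in any of the 6 comparisons.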

How the data were processed

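The deposited FPKM values, 1 file per library with a row per gene symbol, were made by the authors. The submitters' processing notes list Cuffdiff 2.2.1, TopHat2 2.0.13 and mm10 without their roles. Per the labels, 2 library kits are named, with no kit assigned to a library. Log2(FPKM + 1) was computed from the deposited values and fitted with limma 3.58.1 (R 4.3.3; empirical Bayes with an intensity trend) in 1 fit over all 12 libraries with a mean per group and 6 residual degrees of freedom. Genes that reached 1 FPKM in 2 or more libraries were tested, two-sided, with Benjamini-Hochberg adjustment over all 13109 and a threshold of 0.05. Fragment numbers were estimated from the steps of low values, with transcript lengths shortened by 190 bases. Positions, transcripts and promoters came from GENCODE and RefSeq for GRCm38. Promoters were aligned with MAFFT 7.526 and transcripts, pair by pair, with Biopython 1.88. The steps were tested on simulated data. The members and gene lists were chosen with earlier results of these data known. Named genes were the members, the hairpins' targets, the 6 genes most like the family sum, and, from each list, up to 4 that passed by smallest p, or up to 3 where none did; Dux was named after its values were seen. Alternatives were another pseudocount, other filters, scalings and weights, an arm-only fit, the replicate number as a block and leaving out each library.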

Additional observations from a re-analysis of the deposited data

How the results depend on the processing

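For H3.1K36M against H3.1K9M, shSuv39h1 against shNC and shSuv39h2 against shNC, the number of Zscan4 genes past the threshold stayed at 5 to 6, 0, and 5 to 6 under the 14, 14 and 13 alternatives run. For H3.1K36M against H3.1WT, where 1 passed, 0 passed with a pseudocount of 0.1. With the mean of the feeder markers as a covariate, an alternative added after the data were seen, 0 passed. Zscan4b changed sign with that covariate, to -0.077 on the log2 scale (limma adjusted p = 0.86). With array quality weights 4 passed, in a fit where 2983 of all tested genes did, against 634 in the main fit. When a library was left out, the log2 fold change of Zscan4a ran from 1.07 to 1.47. For H3.1K9M against H3.1WT, where 4 passed, 0 passed with no filter, with array quality weights and with the libraries of the arm alone. Over all genes 12 passed there with no filter and 1 with array quality weights, against 41 in the main fit. The calls were not kept in every fit that left out a library. For shSuv39h1 against shSuv39h2, 2 to 3 passed when a library was left out, against 5, and quantile normalization gave a log2 ratio of the family sum of 2.10. The causes were not tested. The deviations of same-numbered replicates had correlations of -0.38 to 0.38, and the labels tie the numbers to nothing shared. The numbers were therefore not taken to pair libraries. With the replicate block 0 Zscan4 genes passed for H3.1K9M against H3.1WT, in a fit where 7 genes passed in all. With crossed numbers 0 passed for H3.1K9M against H3.1WT, 5 for H3.1K36M against H3.1K9M and 0 for shSuv39h1 against shNC. Over all genes, the number past the threshold ran from 58 to 2983 for H3.1K36M against H3.1WT, 1 to 696 for H3.1K9M against H3.1WT and 358 to 2236 for shSuv39h2 against shNC. Depth limits Zscan4b and Zscan4e most in shSuv39h2 libraries, with about 1 to 8.9 fragments each.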
